A study of Homo sapiens with 12 samples.

Results

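The genes of oxidative phosphorylation were followed in HK-2 cells, an immortalized human kidney line of proximal tubular origin, on 12 Affymetrix arrays. The groups were cells given a high dose of Nnm for 24 h, cells given only the vehicle for 24 h (control), cells given the same dose for 48 h and their 48 h vehicle controls, with 3 biological replicates in each. All 4 groups were grown in the same DMEM and F12 mixture with EGF, insulin, hydrocortisone, transferrin and selenium, and total RNA was extracted from bulk cultures. Nnm is written as the labels give it, and its dose, its full name and the vehicle were not given in the sources used here. A single immortalized line limits these cultures as a model of the tubule. The members were all genes whose symbol begins with NDUFA, NDUFB, NDUFC, NDUFS, NDUFV, UQCR, COX4 to COX8 or ATP5, with the succinate dehydrogenase genes and CYC1. By this rule 91 of the 19775 genes that the platform annotation names alone were members. They were 33 genes of complex I, 3 of complex II, 7 of complex III, 17 of complex IV, 18 of complex V, 8 complex I assembly factors with NDUFAF symbols, and 5 pseudogenes or noncoding RNAs that share a prefix. Each gene was read from 1 probe set, the one with the highest mean over the 12 arrays. Symbols held only by probe sets that also name another gene (8, among them NDUFC2, NDUFS8 and UQCRH) were left out. SDHB, UQCRFS1, NDUFA4 and NDUFA4L2 were not analysed here.

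Oxidative phosphorylation takes place in the inner membrane of the mitochondrion. Complexes I and II feed electrons from NADH and succinate into coenzyme Q, complex III passes them to cytochrome c, complex IV passes them to oxygen, and complex V (ATP synthase) uses the proton gradient built on the way to make ATP. Proximal tubule cells in the kidney depend strongly on this route for the energy of solute transport. Nearly all of the subunits are made from nuclear genes, and the others, made from mitochondrial DNA, were not analysed here.

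Values were log2 expression levels from GCRMA, a method that corrects each probe for background and brings the arrays to a common distribution. Percentages of control are fitted log2 changes turned back to a linear scale. The 9 proximal tubule transporters and enzymes that could be looked up, such as LRP2 and AQP1, lay below log2 4 on all 12 arrays, so the tubule identity in the label was not visible in these markers. All 7 epithelial markers were tested, and 0 were called in limma at either time. Of the fibroblast, endothelial and podocyte markers 5 were tested and 0 called. The fibroblast markers DCN, LUM and COL1A1 averaged 11.8 to 12.2, 9.96 to 10.3 and 7.65 to 8.83 over the 4 groups, beside 11.4 to 12.2 for the epithelial KRT8. The remaining fibroblast markers, COL3A1 and PDGFRB, lay below log2 4 on all arrays. With replicate number as a block, KRT8 and COL1A1 were lower at 24 h (adjusted p = 0.0222 and 0.0334 in limma), CDH1 was lower at 48 h (0.0375) and PODXL higher at 48 h (0.0308). Without the Nnm arrays of replicate 2 described next, 2 of 7 epithelial and 2 of 3 tested fibroblast markers fell at 24 h. At 48 h 1 epithelial and 1 fibroblast marker fell, while 3 epithelial, 1 endothelial and 1 podocyte marker rose. In that fit 24.5% of all 10963 tested genes were lower at 24 h and 19.9% at 48 h. The numbers of genes higher were 2789 and 2734. The 9 tubule markers summed to 22.6 to 22.9 on the Nnm arrays and 22.6 to 22.8 on the control arrays at 24 h, and to 22.5 to 22.7 and 22.6 to 22.8 at 48 h. The 7 epithelial markers summed to 73.4 to 74.0 on the Nnm arrays and 74.9 to 77.4 on the control arrays at 24 h, and to 72.7 to 75.5 and 73.6 to 77.4 at 48 h, and their part in the results was not tested. In the first principal component, which held 57.4% of the variance, the Nnm arrays of replicates 1 and 3 scored 68.6 to 87.8, whereas the Nnm arrays of replicate 2 scored -16.1 at 24 h and -19.8 at 48 h and the 6 control arrays -49.6 to -44.2. The Nnm arrays of replicate 2 therefore lay nearer to the controls than the other Nnm arrays did, and each leading count is given with and without them. In bulk RNA on a common scale, less of a transcript in each cell and fewer cells that carry it cannot be told apart.

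Some genes of the respiratory chain and ATP synthase fell in Nnm cells at both times, and no member was called higher. Of the 82 members that passed the filter on low values, all of them above it on all 12 arrays, 10 fell and 0 rose at 24 h (limma, adjusted p under 0.05), which is 12.2% lower, against 8.21% lower and 8.31% higher among all 10963 tested genes. At 48 h 21 fell and 0 rose, 25.6% of the tested members, against 4.27% lower and 6.55% higher among all tested genes. The median member changed by -0.24 at 24 h and -0.33 at 48 h on the log2 scale, where the median over all tested genes was -0.005 and 0.02. Changes below 0 were found for 71 members at 24 h and 74 at 48 h. All 3 Nnm arrays lay below all 3 control arrays for 38 members at 24 h and 53 at 48 h, against 20% and 16.9% of all tested genes. All 3 lay above the controls for 2 and 3 members, against 19.6% and 20.7% of all tested genes. The 8 genes called lower at both times were NDUFS1, NDUFV1 and NDUFB9 of complex I, SDHA of complex II, CYC1 and UQCRC1 of complex III, ATP5MC1 of complex V and the assembly factor NDUFAF5.

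**Figure D1:**
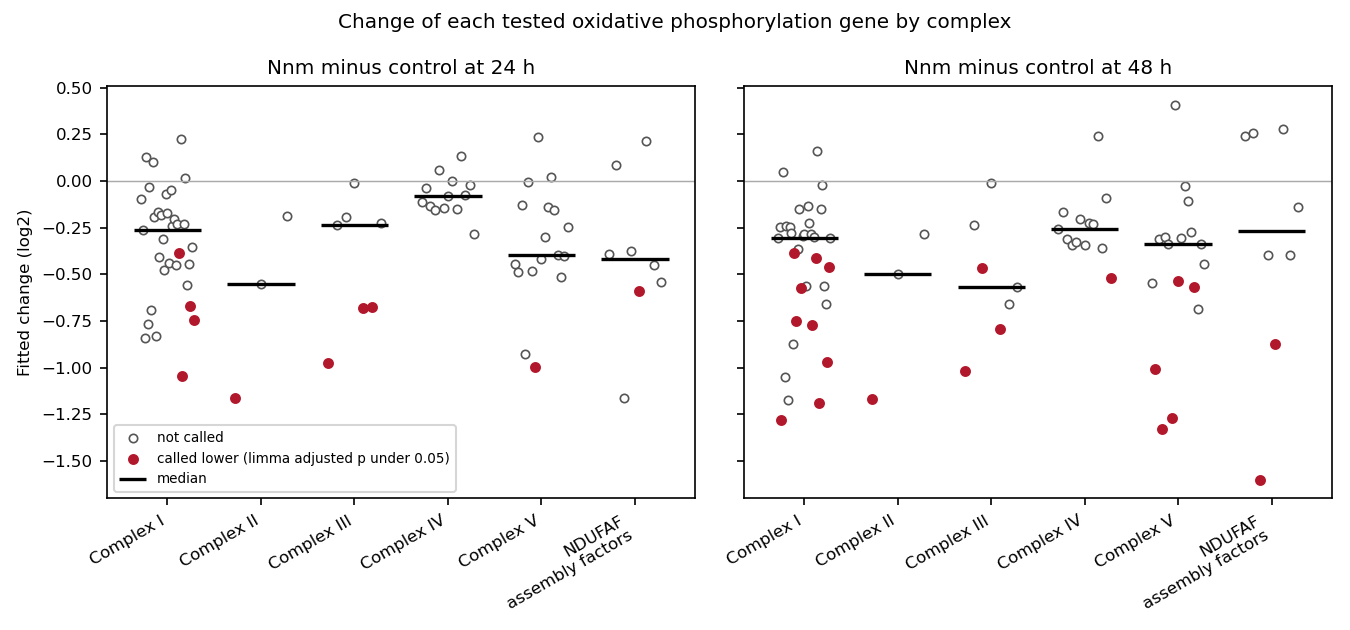
Fitted change (Nnm minus control, log2) of every tested gene of complexes I to V and of the NDUFAF assembly factors at 24 h (left) and 48 h (right), 1 point per gene, filled where the gene was called lower, with the median of each complex as a line. Medians lie below 0 in all 6 sets at both times, and complex IV has 0 filled points at 24 h and 1 at 48 h.

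The same direction was seen in each replicate pair. The median member differed by -0.38, -0.11 and -0.24 between Nnm and control of replicates 1, 2 and 3 at 24 h, with 72, 66 and 66 of 82 members below 0. At 48 h the medians were -0.40, -0.22 and -0.43, with 71, 70 and 74 members below 0. Replicate 2 gave the smallest median at both times, and the median over all tested genes stayed between -0.02 and 0.03 in the 6 pairs.

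**Figure D2:**
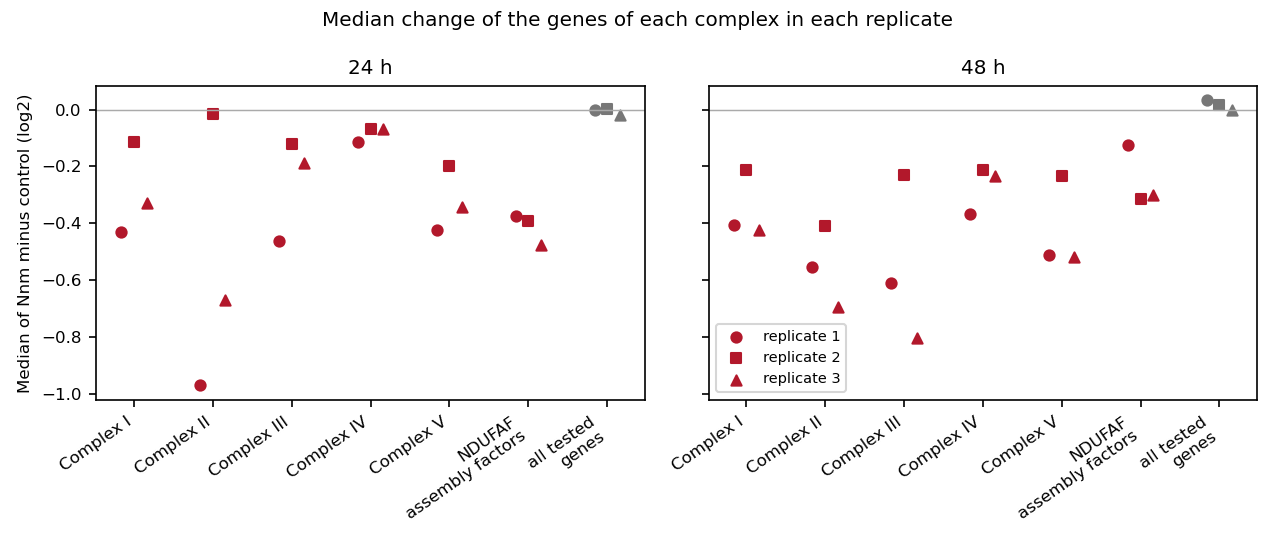
Median of Nnm minus control (log2) over the tested genes of each complex and over all tested genes, with 1 symbol per replicate pair, at 24 h (left) and 48 h (right). The medians of complexes I to V lie below 0 in every replicate, and replicate 2 is the nearest to 0 for each of these 5 complexes at both times.

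The number of calls depended on the treatment of the replicates. With replicate number as a block, 25 members fell and 0 rose at 24 h, against 15.9% of all tested genes lower, and 32 fell and 1 rose at 48 h, against 9.68%. Without the Nnm arrays of replicate 2, 41 fell and 2 rose at 24 h, against 24.5% of all tested genes lower, and 49 fell and 3 rose at 48 h, against 19.9%. These arrays were set aside for lying near the controls, so the calls made without them are a description and no further test. When only the 6 arrays of a time were fitted, 0 members were called at either time (lowest adjusted p in limma 0.056 and 0.0511), with 29 and 42 lower at an unadjusted p under 0.05. In those fits 0.119% and 0.155% of all tested genes were called lower, so few genes of any kind passed. Among single arrays left out at 24 h, the count lower was 0, 32 and 0 without Nnm replicates 1, 2 and 3 (0.146%, 20.4% and 0.328% of all tested genes) and 0, 7 and 0 without control replicates 1, 2 and 3 (0.867%, 5.39% and 0.128%). At 48 h it was 2, 36 and 1 without Nnm replicates 1, 2 and 3 (0.42%, 12% and 0.347% of all tested genes) and 3, 10 and 2 without control replicates 1, 2 and 3 (0.52%, 1.7% and 0.566%). The arrays that changed the count of members changed the count over all genes in the same direction.

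Promoters of 70 of the 82 tested members were matched in the RefSeq table of GRCh38.p14, and 7 are shown: 5 genes that were called lower at both times, and ATP5MC2 and COX6A1, which were not called at either time. The 250 bases before the annotated start are given 5′ to 3′ on the gene's strand, with capitals for matches to the binding motifs of NRF1 (GCGCNTGCG) or GABPA (CCGGAAGT) on either strand; both are activators of respiratory genes. The regions are chr5:218070-218319 (plus strand) for SDHA, chr2:206159445-206159694 (minus) for NDUFS1, chr3:48609647-48609896 (minus) for UQCRC1, chr17:48892537-48892786 (plus) for ATP5MC1, chr11:67606686-67606935 (plus) for NDUFV1, chr12:53676084-53676333 (minus) for ATP5MC2 and chr12:120437863-120438112 (plus) for COX6A1.
SDHA: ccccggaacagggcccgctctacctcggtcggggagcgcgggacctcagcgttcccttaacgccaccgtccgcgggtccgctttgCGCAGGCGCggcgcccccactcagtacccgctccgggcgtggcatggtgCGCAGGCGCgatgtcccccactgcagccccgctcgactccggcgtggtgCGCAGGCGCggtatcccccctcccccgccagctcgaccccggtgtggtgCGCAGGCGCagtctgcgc
NDUFS1: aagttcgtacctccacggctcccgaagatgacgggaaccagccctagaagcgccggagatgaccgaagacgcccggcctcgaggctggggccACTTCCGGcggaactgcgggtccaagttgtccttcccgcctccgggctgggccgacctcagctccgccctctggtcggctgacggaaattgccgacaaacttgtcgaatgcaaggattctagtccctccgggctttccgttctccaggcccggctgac
UQCRC1: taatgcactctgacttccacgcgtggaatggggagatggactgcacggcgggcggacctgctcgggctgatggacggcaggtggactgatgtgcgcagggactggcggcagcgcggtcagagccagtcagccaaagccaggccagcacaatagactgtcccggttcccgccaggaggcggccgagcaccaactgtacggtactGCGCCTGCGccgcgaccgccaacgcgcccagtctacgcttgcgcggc
ATP5MC1: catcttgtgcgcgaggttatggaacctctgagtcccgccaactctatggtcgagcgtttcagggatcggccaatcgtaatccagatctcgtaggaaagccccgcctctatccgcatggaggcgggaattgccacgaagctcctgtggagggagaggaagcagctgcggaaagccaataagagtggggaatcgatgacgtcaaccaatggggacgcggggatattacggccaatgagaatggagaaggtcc
NDUFV1: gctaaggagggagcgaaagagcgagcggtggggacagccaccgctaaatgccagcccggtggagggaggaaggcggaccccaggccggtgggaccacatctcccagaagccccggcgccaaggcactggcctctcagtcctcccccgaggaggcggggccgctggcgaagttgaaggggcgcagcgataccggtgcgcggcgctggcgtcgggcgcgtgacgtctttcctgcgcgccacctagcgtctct
ATP5MC2: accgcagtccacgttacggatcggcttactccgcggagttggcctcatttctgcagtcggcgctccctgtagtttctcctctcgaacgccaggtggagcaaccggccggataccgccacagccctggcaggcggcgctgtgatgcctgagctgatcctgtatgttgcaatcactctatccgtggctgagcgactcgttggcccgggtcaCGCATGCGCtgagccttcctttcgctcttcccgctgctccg
COX6A1: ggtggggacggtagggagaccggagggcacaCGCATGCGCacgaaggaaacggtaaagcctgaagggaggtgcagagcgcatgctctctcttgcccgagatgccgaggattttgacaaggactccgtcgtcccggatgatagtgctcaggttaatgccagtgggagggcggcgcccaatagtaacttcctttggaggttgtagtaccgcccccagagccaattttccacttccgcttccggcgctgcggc
SDHA holds 4 NRF1 matches, UQCRC1 holds 1, NDUFS1 holds 1 GABPA match, and ATP5MC1 and NDUFV1 hold none of these motifs. Both genes that were not called, ATP5MC2 and COX6A1, hold 1 NRF1 match, but the genes shown were picked and do not stand for the other members. Of the 11 tested complex IV genes with a promoter, COX6A1 was the 1 with an NRF1 match. COX6A1, the common isoform of a complex IV subunit, had values of 0.06 at 24 h and -0.32 at 48 h (adjusted p = 0.749 and 0.0843 in limma) and was chosen after its values were seen. Over the full window, which also takes in the 50 bases after the start, 22 of 70 member promoters (31.4%) had an NRF1 match, 9 (12.9%) a GABPA match and 10 (14.3%) a match to the YY1 motif AAGATGGC. The shares among the 9073 promoters of tested genes were 15.8%, 9.32% and 5.78%, and among all 35116 promoters 7.47%, 4.14% and 2.89%. An NRF1 match was found in 7 of the 16 promoters of members called lower at 48 h and in 15 of the other 54. A match to any of the 3 motifs was found in 10 of the 16 (62.5%) and 22 of the 54 (40.7%), a difference that was not tested. By complex, NRF1 matches were found in 9 of 31 promoters of complex I, 2 of 2 of II, 3 of 5 of III, 1 of 11 of IV and 6 of 14 of V. A match is a run of letters and not a measured binding site.

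Complex I takes electrons from NADH through a hydrophilic arm and pumps protons through a membrane arm. Of its 33 genes, all tested, 4 fell at 24 h and 9 at 48 h, with 10 and 13 in the fit with the replicate block and 19 and 22 without the Nnm arrays of replicate 2. Over all tested genes 8.21% were lower at 24 h and 4.27% at 48 h, against 12.1% and 27.3% here. With the block these background shares were 15.9% and 9.68%, and without those arrays 24.5% and 19.9%. They apply to the counts of all complexes, modules and NDUFAF factors below. The median change of complex I was -0.26 at 24 h and -0.30 at 48 h, with 29 and 31 genes below 0. In the N module, which binds and oxidises NADH, 3 of 8 genes fell at each time (medians -0.46 and -0.38), and 5 at 24 h and 4 at 48 h with the block. In the Q module, which reduces coenzyme Q, 0 of 4 fell at 24 h and 1 at 48 h (medians -0.32 and -0.45), and 1 at each time with the block. In the membrane arm 1 of 18 fell at 24 h and 5 at 48 h (medians -0.25 and -0.30), and 4 and 8 with the block. Without the block, the 24 h counts of the Q module and the membrane arm lay below the background share.

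NDUFS1, the largest core subunit and a carrier of iron-sulfur clusters in the N module, had the lowest fitted change of complex I at 24 h. Its level was 10.11, 10.70 and 9.92 in Nnm cells at 24 h, against 11.28, 11.40 and 11.17 in controls, and 9.83, 10.57 and 9.91 in Nnm cells at 48 h, against 11.17, 11.38 and 11.32 in controls. All Nnm arrays were lower than all controls at both times, with Nnm replicate 2 the highest of its group. The change was -1.04 at 24 h (SE 0.23, adjusted p = 0.0228 in limma) and -1.19 at 48 h (adjusted p = 0.0172), or 48.5% and 43.9% of control. Over its alternatives the adjusted p in limma reached 0.134 and 0.0673. Its other tested probe sets, all less bright, had -1.32, -0.32, -0.09 and 0.03 at 24 h (adjusted p = 0.0711, 0.503, 0.646 and 0.954 in limma). In the same order they had -1.59, -1.01, -0.10 and -1.03 at 48 h (0.0513, 0.0646, 0.623 and 0.0455), where only the last passed. NDUFV1, the core subunit that holds the FMN and the NADH site, had 10.14, 10.40 and 10.32 in Nnm cells against 11.19, 10.72 and 10.96 in controls at 24 h, and 10.04, 10.19 and 9.82 against 11.25, 10.63 and 11.08 at 48 h. It also did not overlap, and its changes were -0.67 (SE 0.19, adjusted p = 0.0413 in limma) and -0.97 (adjusted p = 0.0168). NDUFA11, an accessory subunit of the membrane arm, stood at 10.14, 11.48 and 10.33 in Nnm cells against 11.89, 11.81 and 12.09 in controls at 48 h. It fell at 48 h (-1.28, SE 0.32, adjusted p = 0.0347 in limma), and its value at 24 h was -0.84 (adjusted p = 0.0935). Nnm replicate 2 lay closest to the controls and the other Nnm arrays well below them. NDUFB7, a membrane-arm accessory subunit on the outer face of the inner membrane, changed by -0.77 at 48 h (SE 0.15, adjusted p = 0.0182 in limma). At 24 h its value was -0.45 (adjusted p = 0.0696), and 0.0495 with the replicate block (0.00913 to 0.127 over its alternatives).

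NDUFS4 and NDUFA5 were the complex I genes whose mean change over both times lay nearest to 0. NDUFS4, an accessory subunit of the hydrophilic arm, had a change of 0.01 at 24 h (95% interval -0.28 to 0.31, adjusted p = 0.953 in limma) and -0.02 at 48 h (-0.32 to 0.28, adjusted p = 0.932), and its arrays overlapped at both times. NDUFA5, in the Q module, had 0.10 at 24 h (-0.15 to 0.35) and -0.25 at 48 h (-0.50 to 0.0049), so its mean near 0 comes from values of opposite sign, and its Nnm arrays lay below all controls at 48 h. NDUFA12, in the N module, and NDUFB4, in the membrane arm, stayed nearer to 0 at 48 h, with 0.13 and -0.05 at 24 h and 0.05 and -0.13 at 48 h. The intervals of NDUFS4 and NDUFA5 leave out a fall as large as that of NDUFS1.

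**Figure D3:**
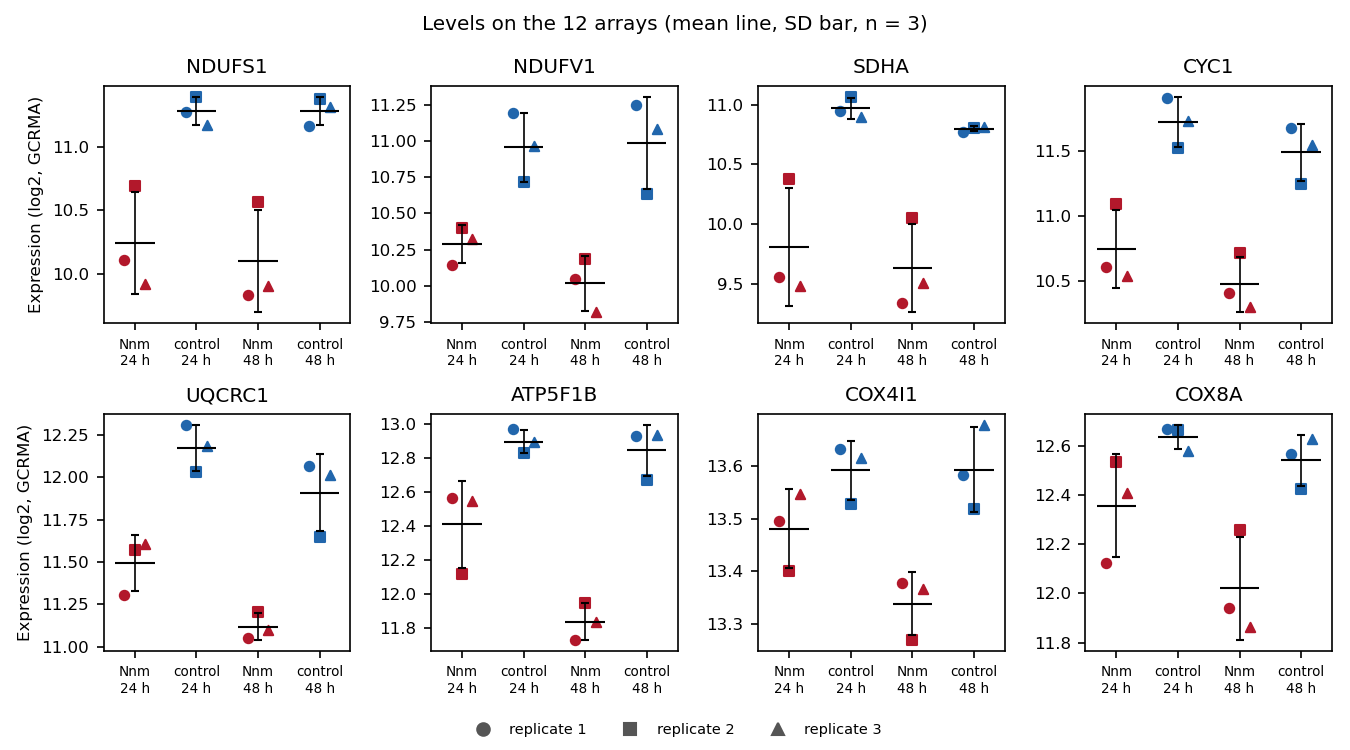
Levels (log2) of 8 members on the 12 arrays, with Nnm in red and control in blue, a symbol per replicate, a line for the mean and a bar for the SD (n = 3). NDUFS1, NDUFV1, SDHA, CYC1, UQCRC1 and ATP5F1B lie lower on all Nnm arrays than on all controls at both times, while COX4I1 overlaps at 24 h.

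Complex II is succinate dehydrogenase, the enzyme shared by the citric acid cycle and the electron transport chain. SDHA, its flavoprotein subunit where succinate is oxidised, had 9.56, 10.37 and 9.49 in Nnm cells against 10.94, 11.06 and 10.89 in controls at 24 h. At 48 h it had 9.34, 10.05 and 9.51 in Nnm cells against 10.77, 10.81 and 10.82 in controls. No Nnm array reached a control array, and the Nnm SD (0.49 and 0.37) was wider than that of controls (0.09 and 0.02), with replicate 2 nearest to them. SDHA changed by -1.16 at 24 h (SE 0.24, adjusted p = 0.019 in limma) and by -1.17 at 48 h (adjusted p = 0.0203), to 44.7% and 44.5% of control. Its 1 probe set has the suffix _x_at, which marks probes that can also bind other transcripts, so signal from near-identical copies cannot be separated from it.

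The membrane anchors gave smaller values that did not pass the test. SDHC had 10.27, 11.30 and 10.39 in Nnm cells against 11.24, 11.32 and 11.06 in controls at 24 h, where Nnm replicate 2 lay among the controls and the other Nnm arrays below them. Its change was -0.55 at 24 h (SE 0.26, adjusted p = 0.154 in limma) and -0.50 at 48 h (adjusted p = 0.221), and without the Nnm arrays of replicate 2 it was called lower at both times. SDHD had -0.19 (95% interval -0.50 to 0.13, adjusted p = 0.366 in limma) and -0.28 (-0.60 to 0.03, adjusted p = 0.205).

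Complex III passes electrons from coenzyme Q to cytochrome c. Of its 7 genes 3 fell at each time, with a median of -0.23 at 24 h and -0.57 at 48 h. With the replicate block 3 fell at 24 h and 5 at 48 h, and without the Nnm arrays of replicate 2 the count was 5 at each time. CYC1, the cytochrome c1 subunit that hands the electron on, had 10.61, 11.09 and 10.54 in Nnm cells against 11.91, 11.52 and 11.73 in controls at 24 h. At 48 h it had 10.41, 10.71 and 10.30 against 11.68, 11.25 and 11.54. The groups did not overlap, and the change was -0.98 at 24 h (SE 0.19, adjusted p = 0.0168 in limma) and -1.02 at 48 h (adjusted p = 0.0162), or 50.8% and 49.4% of control. UQCRC1, a core subunit on the matrix side, had 11.30, 11.57 and 11.61 in Nnm cells against 12.31, 12.04 and 12.18 in controls at 24 h, and 11.05, 11.21 and 11.10 against 12.07, 11.65 and 12.01 at 48 h. It changed by -0.68 (SE 0.15, adjusted p = 0.0213 in limma) and by -0.79 (adjusted p = 0.0153). UQCRC2, its partner core subunit, fell by 0.67 at 24 h (SE 0.19, adjusted p = 0.0408 in limma). At 48 h its value was -0.66 with adjusted p = 0.0519, and 0.0205 with the replicate block (0.00018 to 0.118 over its alternatives).

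Among the small accessory subunits of complex III, 1 of those named here fell. UQCR11 had 11.60, 11.82 and 11.72 in Nnm cells against 12.21, 12.05 and 12.27 in controls at 48 h, a fall of 0.47 (SE 0.12, adjusted p = 0.0383 in limma), and -0.19 at 24 h (adjusted p = 0.275). UQCR10 had values of -0.23 at 24 h and -0.24 at 48 h that did not pass (adjusted p = 0.208 and 0.231 in limma). A less bright UQCR10 probe set, with a mean of log2 5.14, gave -2.49 and -3.04 (adjusted p = 0.0598 and 0.041 in limma). UQCRB, a subunit that contributes to the coenzyme Q site, overlapped between the groups at both times, with -0.01 at 24 h (95% interval -0.28 to 0.26) and -0.01 at 48 h (-0.28 to 0.26). Those intervals do not reach the fall seen for CYC1.

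Complex IV, cytochrome c oxidase, reduces oxygen to water, and its nuclear subunits had the median nearest to 0 of the 5 complexes at both times, a difference between complexes that was not tested. Of 17 genes 13 were tested, 0 fell at 24 h (with 0 in the fit with the replicate block and 1 without the Nnm arrays of replicate 2) and 1 fell at 48 h (3 with the block and 5 without those arrays). The median was -0.08 at 24 h and -0.26 at 48 h. The Nnm arrays lay below all controls for 2 of the 13 genes at 24 h and 8 at 48 h, against 20% and 16.9% of all tested genes, so the 24 h count lay below that background. COX8A, the common isoform of the smallest subunit, had 11.94, 12.26 and 11.86 in Nnm cells against 12.57, 12.43 and 12.63 in controls at 48 h. It fell by 0.52 (SE 0.15, adjusted p = 0.0497 in limma), and its value at 24 h was -0.28 (adjusted p = 0.194). COX4I1, the common isoform of subunit IV, had 13.50, 13.40 and 13.55 in Nnm cells against 13.63, 13.53 and 13.62 in controls at 24 h. It did not pass at 24 h (-0.11, 95% interval -0.34 to 0.12, adjusted p = 0.48 in limma) or at 48 h (-0.26, -0.49 to -0.02, adjusted p = 0.132), although its 48 h arrays did not overlap. COX4I2, the lung-enriched isoform, lay between 5.06 and 5.73 on all arrays with changes of -0.04 and -0.17. COX7C, a small membrane subunit, had -0.02 at 24 h (-0.33 to 0.29) and -0.09 at 48 h (-0.40 to 0.22). The 4 untested genes, COX6B2, COX7A1, COX7B2 and COX8C, are isoforms of muscle or testis and lay below log2 4 on all arrays.

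COX7A2L, a COX7A-family protein that joins complexes III and IV into supercomplexes, lay higher on all Nnm arrays. It had 11.27, 11.26 and 11.25 in Nnm cells against 11.16, 11.17 and 11.05 in controls at 24 h, and 11.86, 11.61 and 11.60 against 11.51, 11.42 and 11.42 at 48 h. The differences of 0.13 and 0.24 did not pass the test (adjusted p = 0.417 and 0.172 in limma). It is named here after its values were seen, as 1 of the few members above the controls on all arrays.

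Complex IV held many bright probe sets, since 10 of its 13 tested genes had a mean above log2 12. Among the 38 members above that level the median change was -0.16 at 24 h and -0.30 at 48 h, with 1 and 6 called lower. Among the 44 below it the medians were -0.45 and -0.43, with 9 and 15 called lower. Over all tested genes the share called lower was 4.12% above log2 12 and 8.48% below it at 24 h, and 5.15% and 4.21% at 48 h. Above log2 12, complexes I, III, IV and V had medians of -0.18, -0.21, -0.10 and -0.27 at 24 h and -0.25, -0.35, -0.32 and -0.33 at 48 h. Among these bright genes complex IV was therefore nearest to 0 at 24 h but not at 48 h. The part of brightness in the order of the complexes was not tested.

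ATP synthase consists of the F1 head that makes ATP, a membrane rotor called the c-ring, a peripheral stalk and membrane subunits that join synthases into dimers. Of 17 tested genes 1 fell at 24 h and 5 fell at 48 h, with 7 and 8 in the fit with the replicate block and 10 and 13 without the Nnm arrays of replicate 2. The 24 h count without the block, 5.88%, lay below the 8.21% lower among all tested genes. At 48 h the share was 29.4%, against 4.27%. The median of complex V was -0.39 at 24 h and -0.34 at 48 h. In the F1 part 0 of 5 fell at 24 h and 2 at 48 h (medians -0.45 and -0.55), and 3 at each time with the block. In the peripheral stalk 0 of 4 fell at 24 h and 1 at 48 h (medians -0.40 and -0.51), and 1 and 3 with the block. In the membrane part 0 of 4 fell at either time, with the block or without it (medians -0.15 and -0.19).

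ATP5F1B, the catalytic beta subunit, had 12.56, 12.12 and 12.55 in Nnm cells against 12.97, 12.83 and 12.89 in controls at 24 h, and 11.73, 11.95 and 11.84 against 12.93, 12.67 and 12.93 at 48 h. Here replicate 2 was the lowest Nnm array at 24 h and the highest at 48 h, and the groups did not overlap. It changed at 48 h by -1.01 (SE 0.15, adjusted p = 0.00778 in limma), to 49.8% of control, and kept an adjusted p of at most 0.0409 whichever single array was left out. At 24 h its value was -0.49 with adjusted p = 0.0511, and 0.0324 with the replicate block (0.0109 to 0.118 over its alternatives). ATP5F1D, the delta subunit of the rotor's foot, had 8.25, 8.39 and 7.80 in Nnm cells against 9.87, 8.92 and 9.65 in controls at 48 h. It changed at 48 h by -1.33 (SE 0.31, adjusted p = 0.0289 in limma), with control replicate 2 the lowest of the controls. At 24 h its value was -0.93 with adjusted p = 0.0676, and 0.0302 with the replicate block (0.0234 to 0.188 over its alternatives). ATP5PB, the long subunit of the peripheral stalk, had 12.91, 13.31 and 13.00 in Nnm cells against 13.61, 13.69 and 13.63 in controls at 48 h and fell by 0.57 (SE 0.13, adjusted p = 0.0238 in limma). At 24 h its value was -0.39 with adjusted p = 0.0586, and 0.0279 with the replicate block (0.00128 to 0.0984 over its alternatives). The dimer subunits ATP5MJ and ATP5MG gave 0.02 (95% interval -0.25 to 0.30) and -0.14 (-0.37 to 0.09) at 24 h, and -0.11 (-0.38 to 0.16) and -0.03 (-0.26 to 0.20) at 48 h. A less bright ATP5MG probe set gave -0.49 and -0.56 and did not pass (adjusted p = 0.121 and 0.0999 in limma).

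The c-ring is encoded by 3 genes, ATP5MC1, ATP5MC2 and ATP5MC3, which give the same mature protein from precursors with different import signals. ATP5MC1 and ATP5MC3 fell, and ATP5MC2 did not. ATP5MC1 had 8.44, 9.26 and 8.96 in Nnm cells against 9.89, 9.83 and 9.94 in controls at 24 h, and 7.98, 8.76 and 8.43 against 9.50, 9.71 and 9.78 at 48 h. It changed by -0.998 (SE 0.23, adjusted p = 0.0252 in limma) and by -1.27 (adjusted p = 0.0143), to 50.1% and 41.4% of control. ATP5MC3 had 12.75, 13.06 and 12.81 in Nnm cells against 13.28, 13.41 and 13.54 in controls at 48 h and fell by 0.54 (SE 0.13, adjusted p = 0.0311 in limma). At 24 h its value was -0.42 with adjusted p = 0.0525, and 0.0268 with the replicate block (0.00134 to 0.0987 over its alternatives). ATP5MC2 had 12.88, 12.93 and 12.58 in Nnm cells against 12.65, 12.58 and 12.43 in controls at 24 h, and 13.20, 13.11 and 13.07 against 12.91, 12.60 and 12.64 at 48 h. Its arrays overlapped at 24 h and lay above all controls at 48 h, with changes of 0.24 (adjusted p = 0.238 in limma) and 0.41 (95% interval 0.10 to 0.71, adjusted p = 0.0804). With the replicate block the adjusted p at 48 h was 0.0337 (0.0133 to 0.125 over its alternatives), which makes ATP5MC2 the 1 member called higher in that fit. The difference between the changes of these genes was not tested, and all 3 genes were read from probe sets with the suffix _s_at, which can bind more than 1 transcript. A pseudogene of ATP5MC2, ATP5MC2P1, was also tested and was not called.

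**Figure D4:**
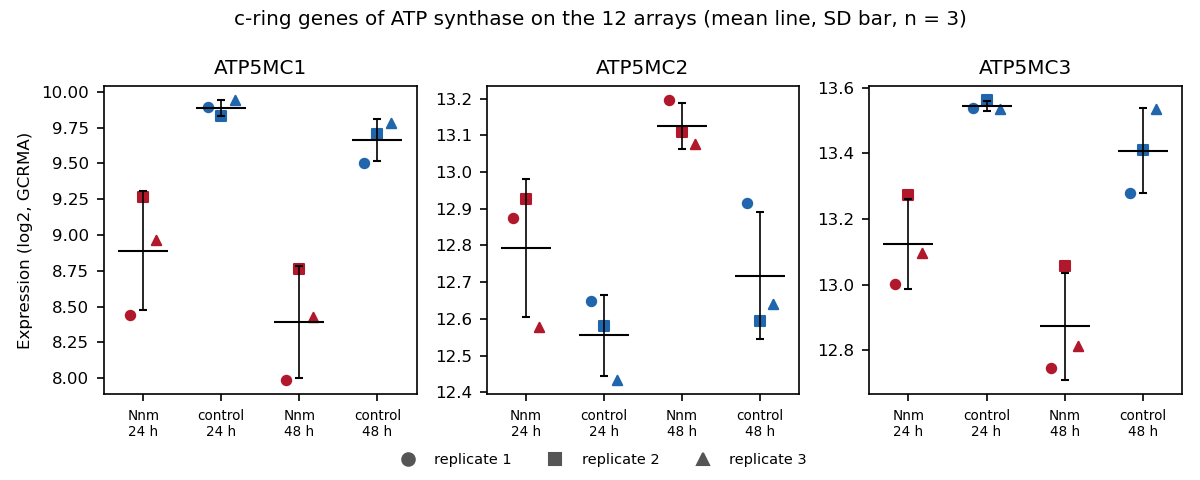
Levels (log2) of the 3 c-ring genes of ATP synthase on the 12 arrays, with Nnm in red and control in blue, a symbol per replicate, a line for the mean and a bar for the SD (n = 3). Nnm arrays lie below the controls for ATP5MC1 and ATP5MC3 at both times, and above them at 48 h for ATP5MC2.

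Complex I is put together by dedicated assembly factors, of which 8 carry NDUFAF symbols. Among these 1 fell at 24 h and 2 at 48 h, with medians of -0.42 and -0.27. With the replicate block 4 and 2 fell, and without the Nnm arrays of replicate 2 the counts were 4 lower and 1 higher at 24 h and 2 lower and 2 higher at 48 h. NDUFAF3, which acts early on the Q module, had 8.25, 8.90 and 8.76 in Nnm cells against 9.77, 9.73 and 9.89 in controls at 24 h, and 7.39, 9.10 and 7.62 against 9.52, 9.54 and 9.86 at 48 h. It had the lowest fitted change of all members at 48 h, -1.60 (SE 0.37, adjusted p = 0.0282 in limma), or 33.0% of control, with Nnm replicate 2 near the controls. At 24 h its value was -1.16 with adjusted p = 0.0593, and 0.0361 with the replicate block (0.000439 to 0.175 over its alternatives). NDUFAF5, an enzyme that modifies a core subunit, had 7.74, 8.20 and 7.80 in Nnm cells against 8.72, 8.80 and 8.83 in controls at 48 h. It changed at both times, by -0.59 at 24 h (SE 0.14, adjusted p = 0.027 in limma) and by -0.87 at 48 h (adjusted p = 0.0102). NDUFAF1 and NDUFAF2 were not called, with -0.39 and 0.09 at 24 h and 0.24 and 0.26 at 48 h.

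**Figure D5:**
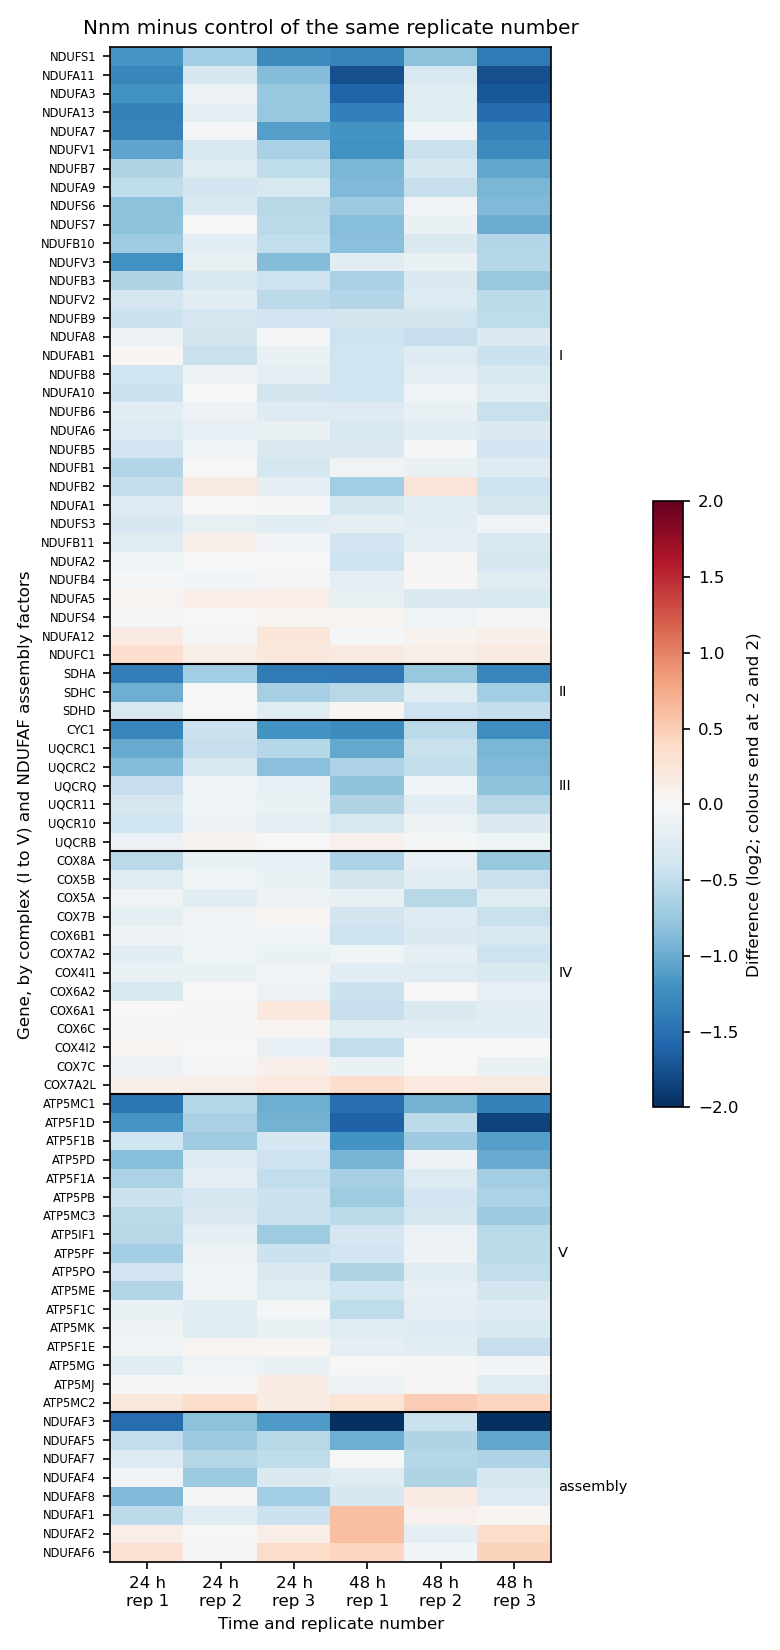
Difference between Nnm and control of the same replicate number (log2, blue lower and red higher in Nnm cells) for each tested gene of complexes I to V and the NDUFAF factors, in rows by complex, with 24 h and 48 h replicates in columns. Blue prevails in all 6 columns, with the smallest medians in replicate 2 (-0.11 and -0.22), and COX7A2L and ATP5MC2 are among the red rows.

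The changes at the 2 times could not be told apart by test. For the Nnm effect at 48 h minus that at 24 h, 0 members were called in limma (lowest adjusted p = 0.78, 3 at an unadjusted p under 0.05), with differences from -0.52 to 0.63, and 0% of all tested genes were called. The higher count at 48 h therefore does not show a deeper fall. Between 48 h and 24 h, 0 members were called in control cells (lowest adjusted p = 0.497, 3 at an unadjusted p under 0.05) and 0 in Nnm cells (lowest adjusted p = 0.19, 18 at an unadjusted p under 0.05), with 0% of all tested genes called in either.

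Genes that serve the same machinery were followed in 4 further lists. Of 41 tested assembly factors of complexes I to V without NDUFAF symbols, 6 fell at 24 h and 1 at 48 h and 0 rose, with medians of -0.48 and -0.36. Among all tested genes 8.21% were lower and 8.31% higher at 24 h, and 4.27% and 6.55% at 48 h. With the replicate block 15.9% were lower at 24 h and 9.68% at 48 h. Without the Nnm arrays of replicate 2 the shares lower were 24.5% and 19.9%. Of 10963 tested genes, 1706 and 1447 were higher with the block and 2789 and 2734 without those arrays. These are the backgrounds of the same fits for this and the next lists. In the fit without the block, the 48 h counts of assembly factors and regulators were near the background. With the replicate block 18 fell and 2 rose at 24 h and 6 fell at 48 h, and without the Nnm arrays of replicate 2 the counts were 25 lower and 1 higher at 24 h and 21 lower and 2 higher at 48 h. FOXRED1, a complex I assembly factor, averaged 5.35 ± 0.81 in Nnm cells and 7.62 ± 0.19 in controls at 24 h (SD, n = 3 each), a fall of 2.27 (adjusted p = 0.0254 in limma). ACAD9, which also helps to build complex I, averaged 8.28 ± 1.2 against 10.3 ± 0.09 and fell by 2.04 (adjusted p = 0.0322 in limma). SDHAF4, a factor for SDHA, fell by 1.30 (adjusted p = 0.0441 in limma). BCS1L, which inserts the iron-sulfur protein into complex III, changed by -0.87 at 24 h and -1.24 at 48 h (adjusted p = 0.0324 and 0.0139 in limma).

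Among 18 tested regulators of mitochondrial biogenesis, 5 fell and 2 rose at 24 h, and 1 fell and 1 rose at 48 h (medians -0.08 and -0.03). Without the Nnm arrays of replicate 2, 6 fell and 4 rose at 24 h and 5 fell and 3 rose at 48 h, and with the replicate block 2 fell at 48 h. PPARGC1A, a coactivator of respiratory genes, averaged 6.96 ± 0.98 in Nnm cells and 8.55 ± 0.19 in controls at 24 h (SD, n = 3 each) and fell by 1.59 (adjusted p = 0.0378 in limma). At 48 h its value was -0.95 (adjusted p = 0.166). PPRC1, a related coactivator, fell by 1.06 at 24 h (adjusted p = 0.012 in limma). TWNK, the helicase of mitochondrial DNA, changed by -1.11 at 24 h and -0.62 at 48 h (adjusted p = 0.00959 and 0.041 in limma). TFB1M and SSBP1, which modify mitochondrial ribosomal RNA and bind single-stranded mitochondrial DNA, were the other genes that fell at 24 h (-1.35 and -0.88, adjusted p = 0.0488 and 0.0185 in limma). GABPA, the DNA-binding subunit of the factor whose motif is marked in the NDUFS1 promoter, rose by 1.18 at 24 h and 1.00 at 48 h (adjusted p = 0.0137 and 0.0218 in limma), and its partner GABPB1 rose by 0.99 at 24 h (adjusted p = 0.0454 in limma). NRF1 did not pass (0.54 and 0.63, adjusted p = 0.295 and 0.254 in limma), and TFAM had -0.06 and 0.13.

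Of 15 genes for coenzyme Q and cytochrome c, the mobile electron carriers, 5 fell and 1 rose at 24 h, and 4 fell and 1 rose at 48 h (medians -0.52 and -0.47). With the replicate block 6 fell at each time. Without the Nnm arrays of replicate 2, 7 fell and 3 rose at 24 h, and 8 fell and 2 rose at 48 h. CYCS, cytochrome c itself, averaged 12.3 ± 0.14 in Nnm cells and 13.0 ± 0.11 in controls at 24 h (SD, n = 3 each) and changed by -0.76 at 24 h and -0.82 at 48 h (adjusted p = 0.0175 and 0.0155 in limma). COQ3, a methyltransferase of coenzyme Q synthesis, changed by -1.35 at 24 h and -1.58 at 48 h (adjusted p = 0.0336 and 0.0242 in limma). The 2 subunits of the enzyme that makes the side chain of coenzyme Q differed in direction: PDSS1 changed by -1.29 at 24 h and -0.91 at 48 h (adjusted p = 0.0122 and 0.0324 in limma), whereas PDSS2 rose by 1.14 at 24 h and 0.93 at 48 h (adjusted p = 0.0185 and 0.0359 in limma). Of 8 tested adenine nucleotide, phosphate and proton carriers 2 fell at each time and 0 rose, and without those arrays 4 fell at each time and 1 rose at 48 h. SLC25A4, an ADP/ATP carrier, averaged 8.82 ± 0.08 in Nnm cells and 9.93 ± 0.10 in controls at 48 h and changed by -0.43 at 24 h and -1.12 at 48 h (adjusted p = 0.0317 and 0.00262 in limma). UCP2, an uncoupling-family carrier, changed by -1.95 at 24 h and -1.69 at 48 h (adjusted p = 0.0164 and 0.0251 in limma).

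Of the 50 members with more than 1 probe set, 31 had several that were tested. Their changes differed in sign in 7 members at 24 h and 4 at 48 h, and in 0 members were probe sets called in both directions. Less bright probe sets of some members differed in call from the one read. At 48 h, for example, those of UQCR10 (-3.04), COX7B (-3.64) and NDUFAF4 (-2.06) passed in limma (adjusted p = 0.041, 0.0379 and 0.0168). At 24 h those of ATP5MC3 (-0.53, 0.0304) and ATP5F1D (-0.85, 0.0417) passed, but that of ATP5F1D did not at 48 h (-0.63, 0.11). For NDUFA11 at 48 h (-1.17, 0.0592) and NDUFV3 at 24 h (-0.28, 0.111) the other tested probe set did not pass. For NDUFS1 at 24 h none of its less bright probe sets passed. Probe sets ending in _s_at gave 6 of the calls at 24 h and 12 at 48 h, those ending in _at 3 and 8, and those ending in _x_at 1 and 1, which was SDHA. Of the 9 untested members, ATP5MF, a dimer subunit of ATP synthase, was read from a probe set below log2 4 while another of its probe sets also names a second gene, and the rest were tissue isoforms of complex IV, the pseudogene COX6A1P1 and 3 noncoding RNAs.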

How the data were processed

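For 12 samples the authors deposited log2 levels of each probe set, computed by GCRMA according to the submitters' processing notes (version not given in the sources used here). Over which arrays it was run was not given either. GCRMA brings arrays to similar distributions (medians 2.91 to 2.98 here), so a shift common to most genes would be hidden, and the number of arrays limits the precision.

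Of 54675 probe sets, 62 controls were left out and 22829 with log2 above 4 on at least 3 arrays were tested in limma 3.58.1 under R 4.3.3. A model of 4 groups over all 12 arrays (8 residual degrees of freedom) used lmFit, contrasts.fit and eBayes. The Benjamini-Hochberg adjustment ran over all tested probe sets, and adjusted p under 0.05 was called. The fit was also run on simulated arrays, drawn independently with the same spread in all groups for each probe set. They held no replicate pairing and no outlying array, so they do not bear on the calls under those features. Each gene was read from its probe set with the highest mean. Symbols were updated through RefSeq for GRCh38.p14, and Python 3.11.15 matched the motifs.

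Same-numbered arrays of different groups deviated together from their group means in all 18 pairs of arrays (correlations 0.16 to 0.67), so the numbers pair the samples in these data. The median for different numbers was -0.21. Deviations within a group sum to 0, so this negative value follows from the positive ones and is no separate evidence. Without the block, the p-values rest on the spread between cultures labelled as biological replicates, including what same-numbered arrays share. A single spread per probe set was taken over all 4 groups, although the groups could differ in it. For NDUFA11 at 48 h, for example, the SD was 0.72 in Nnm cells and 0.15 in controls. Named with values were, per complex, the 4 called members with the largest mean change over both times and the 2 whose mean lay nearest 0 (which takes in genes of opposite changes), the c-ring, SDH and COX4 genes, CYC1, and up to 3 called genes of each further list, with others where the text turns on them. COX7A2L, COX6A1, NDUFA12, NDUFB4 and additional genes of the further lists were named after their values were seen. Members and lists were chosen with earlier results of these data known. Alternatives were the replicate block, 6-array fits, limma-trend, array weights, other filters, median centring, other probe set rules, single arrays left out and the Nnm arrays of replicate 2 left out.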

Additional observations from a re-analysis of the deposited data

Results flagged for a closer look

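For 2 genes the sign of Nnm minus control differed between the times in all 3 replicate pairs. They were picked from the members by that rule, so the signs are a description and no further test. How many of all tested genes meet the rule was not counted. NDUFA5, an accessory subunit of complex I, was higher in Nnm cells than in the control of the same number in all 3 pairs at 24 h and lower in all 3 at 48 h. Its effect at 48 h minus that at 24 h was -0.35 on the log2 scale. NDUFAF1, a complex I assembly factor, was lower in all 3 pairs at 24 h and higher in all 3 at 48 h, a difference of 0.63. The test of the difference did not pass for either (adjusted p = 0.78 for both in limma). Neither gene was called at a single time. In limma NDUFA5 had adjusted p = 0.549 at 24 h and 0.171 at 48 h, and NDUFAF1 0.185 and 0.438.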

How the results depend on the processing

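The count of members lower at 24 h (10) was 25 with the replicate block, 0 with only the 6 arrays of the time, 5 with no filter on low values, 44 with array weights, 41 without the Nnm arrays of replicate 2, 20 with all probe sets of a gene averaged and 5 with probe sets without an _x_at or _s_at suffix. The count lower at 48 h (21) was 32, 0 and 36 with the block, the 6 arrays and limma-trend, and 59, 49 and 11 with array weights, without those Nnm arrays and with the suffix rule. Members called higher (0 at each time) were 2 at 24 h with array weights and 2 without those Nnm arrays, and at 48 h 1 with the block, 1 with limma-trend, 3 with array weights and 3 without those arrays. With single arrays left out, counts lower ranged from 0 to 32 at 24 h and 1 to 36 at 48 h, and counts higher from 0 to 0 and 0 to 1; without Nnm replicate 2 of the other time the counts lower were 22 at 24 h and 34 at 48 h. Array weights raised the share lower over all tested genes to 28.3% and 23.8%, and limma-trend to 9.19% and 5.34%. With no filter, averaged probe sets and the suffix rule that share was not counted, so those counts have no background beside them. The suffix rule also changes which probe sets are read and leaves out members without such a probe set. The numbers pair the arrays. Blocked counts stand beside the leading counts, and blocked adjusted p-values are given for the named members whose call the block changed. The block changed no other call of a named member. The remaining p-values, among them those of the further lists, come from the fit without the block. The median of complex III at 24 h was -0.68 with averaged probe sets and -0.68 with the suffix rule, that of complex IV -0.040 with no filter and -0.040 with the suffix rule, and that of the NDUFAF factors -0.48 without those Nnm arrays. At 48 h complex II had -0.68 with array weights, -0.68 without those arrays and -0.24 with the suffix rule, complex V -0.50 and the NDUFAF factors -0.078 with the suffix rule. Single arrays left out gave medians from -0.48 to -0.41 for the NDUFAF factors and -0.11 to -0.069 for complex IV at 24 h, -0.38 (without Nnm replicate 2) to -0.14 (without Nnm replicate 1) for complex III, -0.88 to -0.36 for complex II without the same arrays, -0.40 for complex I without Nnm replicate 2, and -0.68 to -0.40 for complex II at 48 h. Signs turned only for changes near 0: NDUFS4 at 24 h (-0.00042 with median centring, -0.041 with array weights, -0.060 without those Nnm arrays), UQCRB at 24 h (0.012 averaged, 0.030 by suffix), COX7C by suffix (0.0085 at 24 h, 0.031 at 48 h), ATP5MJ at 24 h (-0.012 without those arrays) and ATP5MG at 48 h (0.0026 with weights, 0.0077 without those arrays). Over single arrays left out, these and COX4I2 ranged at 24 h from -0.060 to 0.092 (NDUFS4), -0.082 to 0.033 (UQCRB), -0.11 to 0.054 (COX7C), -0.038 to 0.096 (ATP5MJ) and -0.071 to 0.022 (COX4I2), and at 48 h from -0.084 to 0.070 (NDUFS4), -0.058 to 0.066 (UQCRB) and -0.057 to 0.0077 (ATP5MG). Over the named members the other alternatives kept direction and call in 489 comparisons, made calls in 59, lost them in 38 and turned the sign in 10. The fits with single arrays left out kept both in 588, made calls in 17, lost them in 120 and turned the sign in 19. Among the called changes of the named members, that of ATP5F1B at 48 h alone kept an adjusted p under 0.05 in limma with every single array left out, and it missed with the 6 arrays (0.0511). The causes were not tested.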
